A study of Danio rerio with 18 samples.

Results

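The C-reactive protein genes crp1, crp2, crp3 and crp4 and the serum amyloid A gene saa were followed in 18 single zebrafish larvae. These 5 genes were chosen by name as acute phase plasma proteins, with earlier results of these data known. Each matched 1 row of the deposited count table by its symbol, so the members are 5 of 25281 rows. All 5 passed the filter on low counts that left 22038 genes for testing. C-reactive proteins are pentraxins, soluble pattern-recognition proteins that bind phosphocholine on microbes and damaged cells and can start the complement cascade. Serum amyloid A is a small apolipoprotein of high density lipoprotein that acts on neutrophils and macrophages. In mammals both are made mainly by hepatocytes and rise in blood during inflammation, under interleukin 6 and interleukin 1 acting through STAT3, C/EBP and NF-kB. In zebrafish larvae saa is also expressed in the intestine, where the microbiota induces it.

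All larvae were wild type of the AB strain, and each library came from the RNA of 1 whole larva at 7 days post fertilization (dpf). At 6 dpf larvae had been sorted into a resilient and a susceptible archetype, by a test that the labels do not describe. The resilient archetype gave 4 basal and 5 stressed larvae, and the susceptible archetype likewise 4 basal and 5 stressed. Stressed larvae were taken 30 min following a stress of 5 min, and basal larvae without it. Each larva was killed for its library, so basal and stressed larvae are different animals. Comparisons that use the same group share its larvae. Raw counts summed to between 8452595 and 23801175 reads per larva. In whole-larva RNA, fewer cells of a type and less RNA per cell cannot be told apart. Levels are given in CPM, read counts brought to a common library size with TMM factors. In earlier results of these data resilient basal 1 and 3, resilient stressed 2 and 3 and susceptible basal 1 and 2 stood apart from their groups, so the main values and list counts that change most without them are also given without them.

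The 4 crp genes lie side by side on chromosome 24 with the further copies crp5, crp6 and crp7, and saa lies on chromosome 7 (RefSeq annotation of assembly GRCz12tu, used for names and neighbours only). In that annotation the model of crp1 spans crp2 to crp6 and overlaps crp7. The copies are related in sequence and no source used here states whether counting was stranded, so how reads were divided between copies is uncertain. crp2 rested on 3 to 46 reads per larva and saa on 7 to 267, against 142 to 1245 for crp3 and 149 to 1394 for crp4. Read depth therefore limits crp2 most.

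In resilient larvae the transcript of crp4 was lower after stress, and it was the 1 of the 5 genes that passed the test in that comparison. In resilient basal larvae 1 to 4 crp4 stood at 54.4, 27.5, 60.1 and 35.4 CPM. In resilient stressed larvae 1 to 5 it stood at 16.5, 20.3, 18.6, 12.9 and 18.3 CPM. Each stressed larva was below each basal larva, a full separation downward that 4.36% of the 22038 genes tested also showed. The means were 44.4 ± 15.4 CPM (SD, n = 4) and 17.3 ± 2.82 CPM (SD, n = 5), a log2 fold change of -1.36 (SE 0.37, 95% confidence interval -2.14 to -0.58, edgeR quasi-likelihood adjusted p = 0.0387). Of the 5 genes 1 was called lower and 0 higher, where 3.59% of all genes tested were called lower and 2.76% higher. The median log2 fold change of the 5 was -0.87, and that of all genes tested 0.00406. The call of crp4 rested on most of the larvae: it ended on leaving out any 1 of resilient basal 1, 3 and 4 or of resilient stressed 1, 2, 3 and 4 (adjusted p = 0.0573 to 0.124), while the log2 fold change stayed between -1.53 and -1.17 for every single larva left out. Without resilient basal 1 and 3 together it was -0.86 (adjusted p = 0.479), and limma voom gave -1.22 (adjusted p = 0.0535). DESeq2 called crp4 as well, and 8 of the 12 alternatives other than leaving out 1 larva kept the call. The authors' deposited table, which gives the basal over the stressed group, lists crp4 at log2 1.36 with adjusted p = 0.00197.

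The neighbouring copy crp3 had a log2 fold change of -0.87 (SE 0.39, 95% confidence interval -1.69 to -0.048) and did not pass the test (edgeR adjusted p = 0.205). Leaving out resilient basal 3 gave -0.53 (adjusted p = 0.516), and leaving out basal 1 as well gave -0.51 (adjusted p = 0.732). It stood at 34.2, 27.2, 67.9 and 38.6 CPM in resilient basal larvae 1 to 4. It stood at 32.3, 21.8, 33.2, 12.9 and 14.2 CPM in resilient stressed larvae 1 to 5. Stressed larvae 1 and 3 were inside the basal range and the other stressed larvae below it.

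saa had the largest fitted change of the 5 genes in resilient larvae but also the widest spread. In resilient basal larvae 1 to 4 it stood at 5.58, 1.30, 22.7 and 2.08 CPM. In resilient stressed larvae 1 to 5 it stood at 1.18, 1.73, 1.67, 0.689 and 0.608 CPM. Resilient basal 3 was far above each other larva, and resilient basal 2 lay inside the stressed range. The means were 7.91 ± 10.01 CPM (SD, n = 4) and 1.18 ± 0.528 CPM (SD, n = 5). The log2 fold change was -2.73 (SE 0.89, 95% confidence interval -4.63 to -0.83), and the test was not passed with edgeR (adjusted p = 0.0840). DESeq2 called it (adjusted p = 0.0207), and the authors' deposited table, which gives the basal over the stressed group, lists log2 2.75 with adjusted p = 0.0234. Without resilient basal 3 the log2 fold change was -1.30 (edgeR adjusted p = 0.429), and without resilient basal 1 and 3 it was -0.49 (adjusted p = 0.888).

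The other copies gave no call. crp1 ranged from 2.83 to 4.65 CPM in resilient basal and from 3.52 to 5.72 CPM in resilient stressed larvae, with log2 fold change 0.21 (SE 0.25, 95% confidence interval -0.32 to 0.74, edgeR adjusted p = 0.692). For crp2 the ranges were 0.434 to 1.87 and 0.434 to 2.66 CPM, and resilient stressed 2 and 3 stood at 1.65 and 2.66 CPM while the other 3 stressed larvae lay between 0.434 and 0.470 CPM. Its log2 fold change was 0.37 (SE 0.61), with a 95% confidence interval from -0.91 to 1.65. Both groups overlapped for each of these genes.

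**Figure D1:**
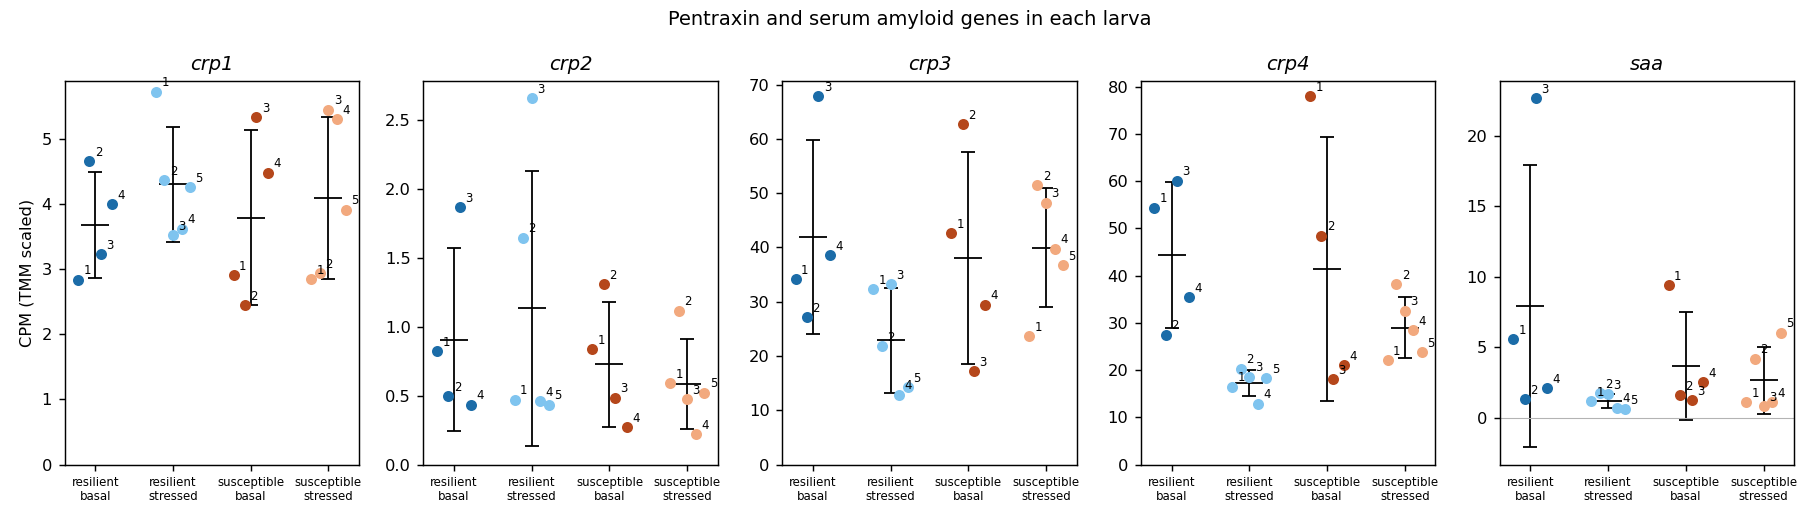
Level of crp1, crp2, crp3, crp4 and saa in each larva (CPM, linear axis; points are larvae labelled by replicate number, horizontal ticks with bars are mean ± SD; n = 4, 5, 4 and 5 from left to right). For crp4 the 5 resilient stressed larvae sit between 12.9 and 20.3 CPM, below the 4 resilient basal larvae, and for saa resilient basal 3 stands alone at 22.7 CPM.

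In susceptible larvae 0 of the 5 genes passed the edgeR test between stressed and basal larvae. crp4 stood at 78.0, 48.5, 18.04 and 21.1 CPM in susceptible basal larvae 1 to 4. It stood at 22.1, 38.2, 32.6, 28.5 and 23.8 CPM in susceptible stressed larvae 1 to 5. Susceptible basal 1 and 2 were above each stressed larva, and basal 3 and 4 below each of them. Its log2 fold change was -0.53 (SE 0.36, 95% confidence interval -1.29 to 0.23, edgeR adjusted p = 0.807), and its sign turned without susceptible basal 1 and 2 (0.56, adjusted p = 0.966). The basal larvae kept in that setting were those below each stressed larva, so this turn follows from the choice of larvae. For saa, susceptible basal 1 reached 9.40 CPM while the other basal larvae lay between 1.21 and 2.51 CPM, and susceptible stressed 2 and 5 reached 4.17 and 6.03 CPM while the other stressed larvae lay between 0.789 and 1.103 CPM. Its log2 fold change of -0.49 had a 95% confidence interval from -2.25 to 1.28 (edgeR adjusted p = 0.957), and it was 0.59 without susceptible basal 1. crp3 averaged 38.0 ± 19.5 CPM (SD, n = 4) before and 39.9 ± 10.9 CPM (SD, n = 5) after stress, a log2 fold change of 0.06 with a 95% confidence interval from -0.75 to 0.88. crp1 and crp2 had log2 fold changes of 0.11 (SE 0.25) and -0.25 (SE 0.64). No member had an unadjusted p below 0.05, and neither DESeq2 nor limma voom called one. Over all genes edgeR called 0 of 22038 here (0%), 1642 had an unadjusted p below 0.05, DESeq2 called 49 and limma voom 0.

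Before stress, susceptible and resilient larvae were not separated by any of the 5 genes. The group ranges overlapped for each, with crp4 at 18.04 to 78.0 CPM in susceptible and 27.5 to 60.1 CPM in resilient basal larvae. Log2 fold changes of susceptible over resilient ran from -1.03 for saa (SE 0.86) to 0.017 for crp1 (SE 0.27), and those of crp3 and crp4 were -0.13 (95% confidence interval -0.99 to 0.73) and -0.08 (95% confidence interval -0.89 to 0.72). These signs depended on single larvae: without resilient basal 3 saa stood at 0.38, crp3 at 0.20 and crp4 at 0.10. The edgeR adjusted p was 0.929 or higher for each, none had an unadjusted p below 0.05, and DESeq2 and limma voom called none. Over all genes edgeR called 0 (0%), with 1311 at an unadjusted p below 0.05, 15 called by DESeq2 and 0 by limma voom.

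After stress, crp4 was separated between the archetypes without passing the test. Susceptible stressed larvae lay at 22.1 to 38.2 CPM, each above the 12.9 to 20.3 CPM of resilient stressed larvae, and 2.46% of all genes tested separated upward in this way. The means were 29.0 ± 6.56 CPM and 17.3 ± 2.82 CPM (SD, n = 5 each). The log2 fold change was 0.75 (SE 0.35, 95% confidence interval 0.0089 to 1.49, edgeR adjusted p = 0.246). A fit of these groups alone called it (log2 fold change 0.74, adjusted p = 0.0361). crp3 stood at 23.6, 51.4, 48.2, 39.8 and 36.7 CPM in susceptible stressed larvae 1 to 5, so 4 of these 5 larvae were above the highest resilient stressed larva at 33.2 CPM. Its log2 fold change was 0.80 (SE 0.37, edgeR adjusted p = 0.237). saa ranged from 0.789 to 6.03 CPM in susceptible and from 0.608 to 1.73 CPM in resilient stressed larvae, with log2 fold change 1.21 (SE 0.87, edgeR adjusted p = 0.473), which was 0.66 without susceptible stressed 5. crp1 and crp2 were at -0.08 (SE 0.23) and -0.91 (SE 0.57) on the log2 scale, the latter -0.28 without resilient stressed 3. Of the 5 genes 0 were called by edgeR, DESeq2 or limma voom, and 2, crp3 and crp4, had an unadjusted p below 0.05; over all genes edgeR called 1.77% higher and 1.77% lower.

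Whether stress acted differently in the archetypes was tested by the difference of their fold changes, susceptible minus resilient. It was 2.24 for saa (95% confidence interval -0.37 to 4.85), 0.93 for crp3 (95% confidence interval -0.23 to 2.09), 0.83 for crp4 (95% confidence interval -0.26 to 1.92), -0.10 for crp1 and -0.62 for crp2. None passed (edgeR adjusted p = 0.468 to 0.943; 0 members at an unadjusted p below 0.05; 0 called by DESeq2 or limma voom), against 0.141% of all genes called. Without resilient basal 3 alone the differences of saa and crp3 were 0.82 and 0.60. Without resilient basal 1 and 3 the saa difference was 0.0062 (adjusted p = 0.999) and that of crp4 0.33. Without susceptible basal 1 that of crp4 was 1.34, and without susceptible basal 1 and 2 it was 1.92 (adjusted p = 0.0553). The susceptible basal larvae kept in that last setting lay below each susceptible stressed larva for crp4, so 1.92 reflects that choice. The call of crp4 in resilient larvae is thus not shown to differ from susceptible larvae. Averaged over both archetypes, crp4 was at -0.94 (SE 0.26, edgeR adjusted p = 0.0703) and saa at -1.61 (SE 0.61, adjusted p = 0.177) after stress, the 2 members with an unadjusted p below 0.05. That of saa was -0.89 without resilient basal 3, -1.07 without susceptible basal 1 and -0.49 without resilient basal 1 and 3, and that of crp4 was -0.40 without susceptible basal 1 and 2. In that average 0 members were called by edgeR, 0 by limma voom and 1, crp4, by DESeq2 (adjusted p = 0.00494), while 1.52% of all genes were called by edgeR. Averaged over both states, the archetypes differed by -0.60 (crp2) to 0.33 (crp3 and crp4) with 0 members called by edgeR, DESeq2 or limma voom, 0 at an unadjusted p below 0.05 and 0.0227% of all genes called.

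**Figure D2:**
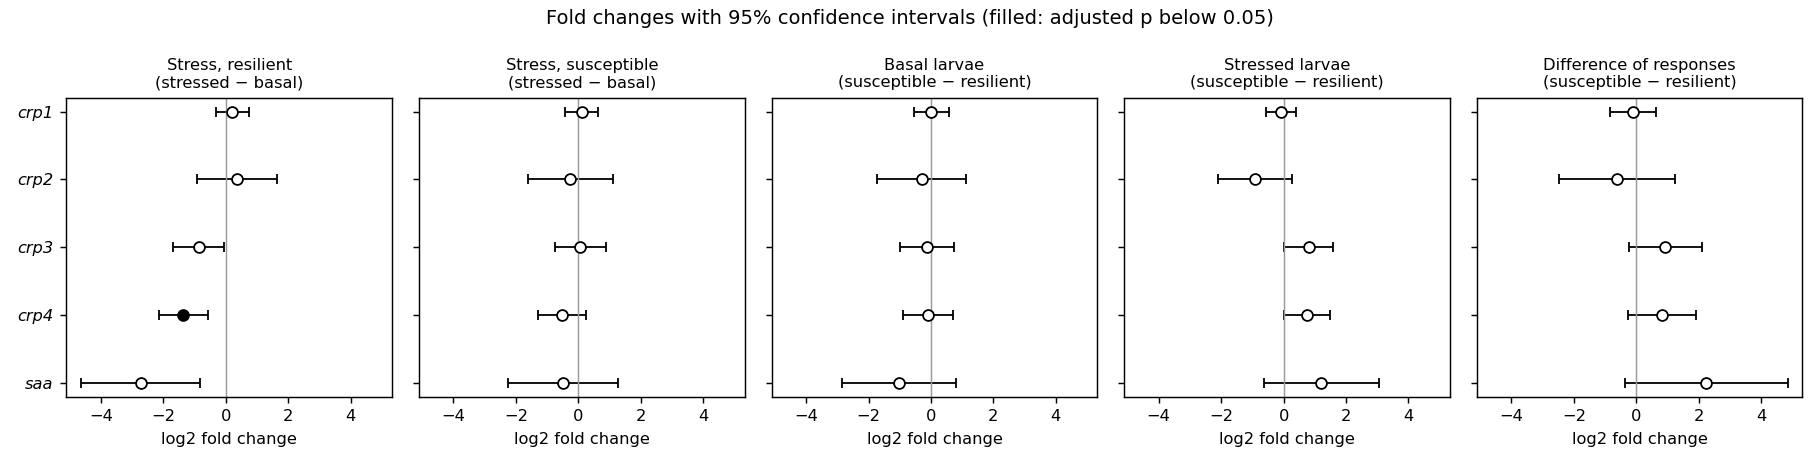
Log2 fold change of each gene in 5 comparisons from 1 edgeR fit over the 18 larvae (points; bars are 95% confidence intervals; a filled point passed at an adjusted p below 0.05). The 1 filled point is crp4 at -1.36 in resilient larvae, and the saa interval in the difference of responses runs from -0.37 to 4.85.

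Ordered by mean, crp4 ran from resilient basal (44.4 CPM) through susceptible basal (41.4 CPM) and susceptible stressed (29.0 CPM) to resilient stressed (17.3 CPM). No neighbouring groups in this order differed by the test. saa had the same order, at 7.91, 3.67, 2.63 and 1.18 CPM, and each neighbouring pair overlapped. crp3 was at 42.0 CPM in resilient basal, 39.9 CPM in susceptible stressed, 38.0 CPM in susceptible basal and 22.9 CPM in resilient stressed larvae, again with overlap between neighbours. crp1 averaged between 3.68 and 4.30 CPM and crp2 between 0.584 and 1.13 CPM over the groups.

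The larvae of 1 group differed from each other more for these genes than for most genes of like level. The SD of log2 CPM within groups was 0.613 for crp3, as large as or larger than in 98.5% of the 3518 genes whose mean CPM lay within 1.5-fold of its own, where the median SD was 0.140. For crp4 it was 0.567 (97.9% of 3687 genes) and for saa 1.29 (96.7% of 3318 genes). crp1, at 0.397, was nearer the middle (77.8% of 3376 genes), and crp2, at 0.969, had 86.5% of 2070 genes at or below it. Over the 18 larvae saa spanned a 37.3-fold range, crp4 a 6.06-fold and crp1 a 2.34-fold range.

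High larvae tended to be high for several members. Resilient basal 3 was highest of all larvae for crp3 and saa and second for crp4, and susceptible basal 1 was highest for crp4 and second for saa. Resilient stressed 4 was lowest for crp3 and crp4 and second lowest for saa. Over the 18 larvae, log2 CPM of crp3 and crp4 had Pearson r = 0.764 (permutation p = 0.00018, Benjamini-Hochberg adjusted over the 10 pairs of members p = 0.0018) and Spearman rho = 0.831 (permutation p = 2e-05, the smallest the permutations can give, adjusted p = 0.0002). Without the 2 larvae farthest from the median of crp3, r was 0.702, and with group means removed 0.689. These copies lie side by side and their reads may be divided wrongly; the part of this in the correlation was not tested. saa, on another chromosome, had r = 0.718 with crp4 (permutation p = 0.00122, adjusted p = 0.0061) and rho = 0.635 (permutation p = 0.00588, adjusted p = 0.0294). This fell to r = 0.516 without resilient basal 3 and susceptible basal 1, and was 0.587 with group means removed. saa and crp3 had r = 0.604 (permutation p = 0.00516, adjusted p = 0.0172) and rho = 0.538 (permutation p = 0.0238, adjusted p = 0.0488), with r = 0.473 without resilient stressed 4 and 5. With group means removed their r was 0.511. No r with group means removed was tested.

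crp1 ran the other way. Its r was -0.551 with crp4 (permutation p = 0.0198, adjusted p = 0.0395; rho = -0.527, permutation p = 0.0255, adjusted p = 0.0488) and -0.559 with crp2 (permutation p = 0.0173, adjusted p = 0.0395; rho = -0.589, permutation p = 0.0109, adjusted p = 0.0363). Without resilient stressed 1 and susceptible basal 2 these were -0.447 and -0.513. With group means removed they were -0.543 and -0.632. The model of crp1 spans crp2 and crp4, and reads may be divided wrongly between them. The part of this in these negative correlations was not tested. The other 5 pairs did not pass in Pearson r (adjusted p = 0.0767 to 0.212), and of these crp2 with saa passed in rho alone (rho = 0.517, permutation p = 0.0293, adjusted p = 0.0488).

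**Figure D3:**
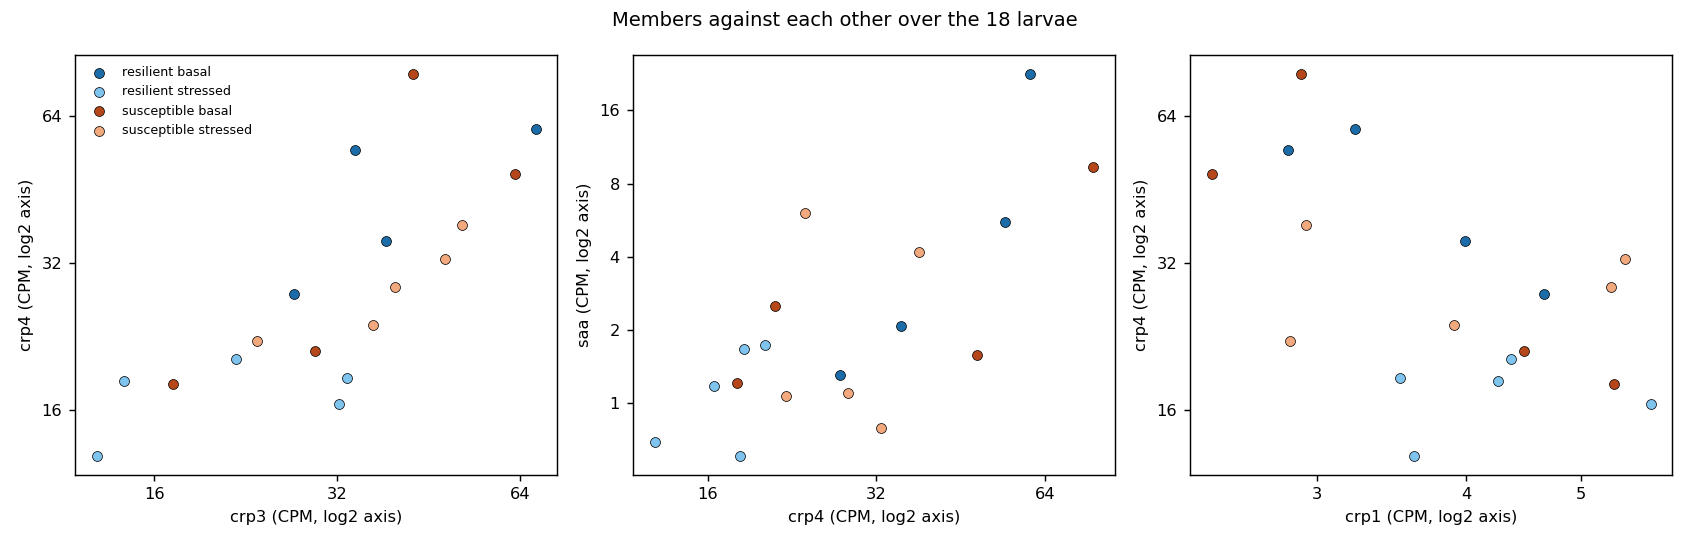
CPM of crp4 against crp3, saa against crp4 and crp4 against crp1 (log2 axes; points are the 18 larvae coloured by group). The first 2 panels slope upward (r = 0.764 and 0.718) and the third downward (r = -0.551).

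Among the reads of the 6 crp rows measured (crp1 to crp4, crp6 and crp7), crp3 and crp4 together made up most in each larva. crp3 held 33.9% to 57.9% and crp4 29.5% to 61.9% over the 18 larvae, shares that depend on the length and mappability of each copy and are compared only between larvae. The ratio of crp4 to crp3 reads was 1.59, 1.014, 0.885 and 0.919 in resilient basal larvae 1 to 4. In resilient stressed larvae 1 to 5 it was 0.510, 0.928, 0.560, 1.00 and 1.29, a range that contains the basal values other than that of larva 1. Susceptible basal larvae had ratios of 1.83, 0.773, 1.05 and 0.717 and susceptible stressed larvae 0.934, 0.742, 0.676, 0.715 and 0.650. The share of crp1 was 6.00% to 12.0% in resilient stressed and 2.40% to 7.68% in resilient basal larvae. In a sum over crp1 to crp4, reads moved among these copies cancel, but reads exchanged with crp5, crp6 or crp7 or left uncounted do not. By this sum resilient stressed larvae held 29.8 to 58.0 CPM and resilient basal larvae 59.9 to 133 CPM. These ranges are separated by a narrow gap, and 4.36% of single genes were separated downward in this comparison. The sums were 41.0 to 124 CPM in susceptible basal and 49.1 to 93.6 CPM in susceptible stressed larvae. No test was run on the shares, ratios or sums. crp6 and crp7 stood at 0.165 to 1.39 and 0 to 0.679 CPM and were below the filter.

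**Figure D4:**
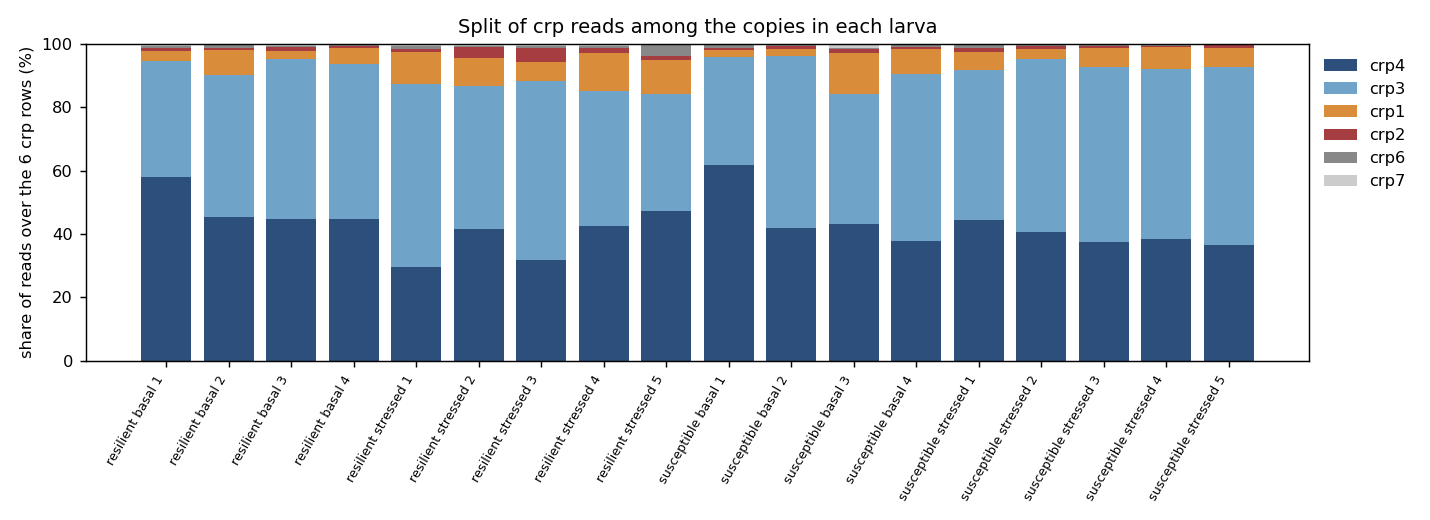
Share of the reads over the 6 crp rows that fell on each copy (percent, stacked bars from 0 to 100, 1 bar per larva). crp4 ranges from 29.5% to 61.9% and crp3 from 33.9% to 57.9%, while crp6 and crp7 form thin slices.

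Other pentraxins gave no call. Of 6 tested, which were the long pentraxins ptx3a and ptx3b and the neuronal pentraxins nptx1l, nptx2a and nptx2b with their receptor gene nptxrb, 0 were called in any of the 7 comparisons with edgeR, and 1, ptx3a in susceptible larvae, had an unadjusted p below 0.05 (log2 fold change -0.59, adjusted p = 0.655). In resilient larvae their median log2 fold change was 0.019, and the smallest p belonged to ptx3b (-0.62, SE 0.35, adjusted p = 0.316) and nptx1l (0.12, SE 0.07, adjusted p = 0.358). ptx3a averaged 22.4 ± 5.41 CPM (n = 4) in resilient basal and 21.7 ± 8.65 CPM (n = 5) in resilient stressed larvae. A second row named ptx3a_1 was outside this list. It stood at 10.4, 0.0873, 6.66 and 8.75 CPM in susceptible basal larvae 1 to 4. In susceptible stressed larvae 1 to 5 it stood at 13.4, 17.3, 5.52, 17.4 and 17.7 CPM. This row was picked after its values were seen and no test of it was run, as given under other observations.

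Other plasma protein genes of the acute phase response, chosen with earlier results known, included several that fell. Of 24 tested, 10 were lower and 1 higher in stressed than in basal resilient larvae, where 3.59% of all genes were called lower and 2.76% higher, with a median log2 fold change of -0.75. These calls changed with the larvae kept: 0 of 24 were called without resilient basal 1 and 3 (median -0.50) or without resilient stressed 2 and 3 (median -0.55). Between 2 and 12 were called lower with single larvae left out, the fewest without resilient basal 1. By the mean log2 CPM of the list, each gene centred over all larvae, resilient basal 1 and 3 stood at 0.398 and 0.546. Resilient basal 2 and 4 stood at -0.227 and 0.0784. Leaving out the highest larvae of a small group also costs power, so these lost calls cannot show how many larvae carried the fall. The loss of calls was not particular to this list. Over all genes 1399 were called with all larvae and 38 without resilient basal 1 and 3. Those of the smallest p were itih3a, an inter-alpha-trypsin inhibitor heavy chain gene (-0.59, SE 0.11), the copper carrier gene cp (-1.15, SE 0.23, adjusted p = 0.00971), the protease trap gene a2ml (-0.76, SE 0.17) and serpina7 (-2.65, SE 0.60, adjusted p = 0.0181). The 1 called higher was hamp, which encodes the iron hormone hepcidin, an acute phase peptide in mammals (2.51, SE 0.71, adjusted p = 0.0470, named outside the rule after its value was seen). In susceptible larvae 0 of the 24 were called with edgeR, although 2 reached an unadjusted p below 0.05, and the median was -0.14. Between the archetypes after stress itih3a (0.49), itih3b (0.51) and serpina1l (0.84) were higher in susceptible larvae (edgeR adjusted p = 0.0206, 0.0325 and 0.0399) and hamp lower (-3.10, SE 0.66, adjusted p = 0.0214), against 1.77% of all genes in each direction, and 0 were called without resilient stressed 2 and 3. Over all genes the number called between these groups went from 782 to 16 without those larvae.

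On the inducing pathway, 3 of 12 tested interleukin 6 and STAT3 genes were lower in resilient larvae after stress, namely the receptor subunit il6st, stat3 and the feedback inhibitor socs3b, against 3.59% of all genes, and the summed level of the list was 504 to 562 CPM in basal and 320 to 419 CPM in stressed larvae. In susceptible larvae that sum was 377 to 475 CPM in basal and 419.8 to 493 CPM in stressed larvae. Between the basal archetypes 0 of the 12 were called with edgeR, and 4 had an unadjusted p below 0.05. The difference of responses also draws on these basal levels. This list was chosen with earlier results of these data known, so its counts beside the shares of all genes are a description and not a test. In the difference of responses the 3 genes called from this list were again il6st, socs3b and stat3, at 0.70 (SE 0.10), 1.014 (SE 0.16) and 0.63 (SE 0.12), susceptible minus resilient (edgeR adjusted p = 0.0127, 0.0217 and 0.0459), against 0.141% of all genes. Without resilient basal 1 and 3, 2 of the 12 (il6st and stat3) were called lower in resilient larvae and 1 (il6st) in the difference, which was also the 1 called there without susceptible basal 1 and 2. Of 14 tested genes of the interleukin 1, NF-kB and C/EBP branch, the cytokine gene tnfb was higher (1.056, SE 0.28, adjusted p = 0.0301) and the NF-kB subunit gene nfkb1 lower (-0.46, SE 0.14, adjusted p = 0.0484) in resilient larvae; without resilient basal 1 and 3 only tnfb was called, and without resilient stressed 2 and 3 neither. Of 4 tested genes for serum amyloid receptors and neutrophil chemokines 0 were called in any comparison with edgeR, and 2 had an unadjusted p below 0.05 between stressed archetypes and 1 in averaged stress. In resilient larvae those of the smallest p were the chemokine genes cxcl8b.1 (-0.58, SE 0.28, adjusted p = 0.238) and cxcl8a (0.45, SE 0.22, adjusted p = 0.260).

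Markers of cells that could hold these transcripts were read beside the lower crp4 of resilient stressed larvae. Of 9 hepatocyte markers tested, the tyrosine-degrading enzyme gene hpda was higher (0.54, SE 0.15, edgeR adjusted p = 0.0367) and the prothrombin gene f2 lower (-0.92, SE 0.25, adjusted p = 0.0372) in stressed than in basal resilient larvae, and 0 were called without resilient basal 1 and 3. In that setting 38 of all genes were called, against 1399 with all larvae. Their summed level was 6536 to 9713 CPM in resilient basal and 5339 to 7324 CPM in resilient stressed larvae. It was 7723 to 10359 CPM in susceptible basal and 5609 to 7434 CPM in susceptible stressed larvae. These ranges did not overlap, but 0 of the 9 markers were called there with edgeR. The mean log2 CPM of these markers, each centred over all larvae so that abundant markers weigh no more, did overlap. It was 0.320 and 0.163 in susceptible stressed 3 and 4, against 0.152 in susceptible basal 3. The share of single genes separated between these susceptible groups is not given. The median log2 fold change of these markers after stress was -0.26 in resilient and -0.29 in susceptible larvae. Of 6 macrophage markers, mpeg1.2 (-1.89), ctss2.1 (-1.19) and mfap4 (-1.48) were lower in stressed resilient larvae (adjusted p = 0.00815, 0.00886 and 0.0325), against 3.59% of all genes. Of these 6 markers 0 were called without resilient basal 1 and 3 (median log2 fold change -0.68, against -1.12 with all larvae) or without resilient stressed 2 and 3 (-1.02). Without resilient basal 1 and 3 calls over all genes likewise fell to 38. Macrophage sums of resilient stressed larvae were 75.7 to 142 CPM. They lay below those of resilient basal (166 to 363 CPM) and susceptible stressed larvae (165 to 263 CPM). The mean centred log2 CPM of these markers overlapped between the resilient groups, at -0.225 in resilient basal 2 and -0.145 in resilient stressed 1. It did not overlap with susceptible stressed larvae, the lowest of which was susceptible stressed 2 at 0.0228. Lower sums were not particular to macrophage markers. The interleukin 6 and STAT3 list sums were also lower in resilient stressed larvae (320 to 419.4 CPM). Those sums were 504 to 562 CPM in resilient basal and 419.8 to 493 CPM in susceptible stressed larvae. Of single genes 4.36% separated downward between resilient basal and stressed larvae. Between the stressed archetypes 2.46% were higher in susceptible larvae without overlap. No such share was computed for sums of several genes. Of 7 neutrophil markers 0 were called with edgeR, although 4 reached an unadjusted p below 0.05, and 7 were negative, with sums of 153 to 406 CPM in resilient basal and 104 to 212 CPM in resilient stressed larvae. Of 7 enterocyte markers 0 were called with edgeR and 2 had an unadjusted p below 0.05. Their sums were 737 to 982 CPM in resilient basal and 1027 to 1434 CPM in resilient stressed larvae. These sums were thus higher after stress without overlap, and the share of single genes separated upward is not given. Their mean centred log2 CPM did overlap, at 0.0386 in resilient basal 1 against 0.000813 and 0.0223 in resilient stressed 1 and 2. None of these markers was at 0 in any larva. The part of these cell types in the crp4 result was not tested.

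The genes whose log2 CPM was most like that of saa over the 18 larvae, among 15922 named rows averaging 1 CPM or more, were the complement gene c3a.1 (Pearson r = 0.872), htra1b (0.816), the pentose phosphate enzyme gene taldo1 (0.803), the matrix metalloproteinase gene mmp9 (0.798) and c3a.3 (0.795). With group means removed c3a.1 again led (0.840), followed by slc17a5 (0.818), cbln11 (0.810), unc93b1 (0.803) and maea (0.779). For crp3, the crp gene of highest mean CPM, they were the complement regulator gene cfhl4 (0.868), the antiplasmin gene serpinf2b (0.859), the terminal complement gene c5 (0.856), c3a.3 (0.854) and abi3b (0.846). With group means removed they were qsox1 (0.856), c5 (0.853), dmgdh (0.842), stc2b (0.827) and cfhl4 (0.824). These are descriptions over larvae that share groups and libraries, and the c3a rows are related copies whose reads may be split.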

How the data were processed

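The submitters' processing notes name cutadapt, STAR, DESeq2 and danRer11; no source used here gives versions, the counter, the annotation or the strand setting. Per the file headers, the authors deposited raw counts per gene and larva. Their table also holds size-factor scaled counts (signal), regularized log2 values, and a log2 fold change with p-values for each pair of groups, all deposited by the authors. From these the values of crp4 and saa for stress in resilient larvae were quoted once each. Of 25281 rows, 15 hold a spreadsheet date as name (0.0613% to 0.0698% of each larva's reads) and were left out.

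Raw counts of the 18 larvae entered 1 fit of 4 group means in edgeR 4.0.16 under R 4.3.3, with TMM scaling, the filterByExpr low-count filter, robust dispersions and quasi-likelihood F tests. Called genes had an adjusted p (Benjamini-Hochberg, over 22038 genes) below 0.05. The SE was derived from the fold change and F, and intervals used the moderated degrees of freedom. Log2 CPM used a prior count of 0.5. Correlations were tested two-sided with 100000 permutations in SciPy 1.17.1. Larvae were permuted across all groups, so these p-values also take in differences between groups. Alternatives included DESeq2 1.42.0 and limma 3.58.1 (voom, quality weights). The tests were first checked on simulated counts. All 32 pairs of larvae within groups differed by more than counting noise (chi-square per degree of freedom 6.66 or more). The p-values judge group differences against the spread between these larvae within groups. Clutches and collection days are not stated, so they cannot speak for other clutches or days.

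Members, gene lists and alternatives were chosen with earlier results of these data known. The lists hold 112 entries, of which 98 were found in the table (by symbol, an older symbol in RefSeq GRCz12tu, or a single numbered copy) and 89 were tested. Up to 4 called genes of smallest p were named per list, or the 2 of smallest p where fewer than 2 were called; most alike genes were the 5 of highest Pearson r. List calls without single larvae or pairs of larvae were added after seeing the data.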

Additional observations from a re-analysis of the deposited data

How the results depend on the processing

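Calls of members rested on single larvae and on the tool, while RLE and upper-quartile factors and both low-count filters changed none (crp2 is not tested at a minimum of 1 CPM). For stress in resilient larvae the count of 1 member called became 2 with DESeq2 (crp4 and saa), and 0 with limma voom (crp4 adjusted p = 0.0535), with a replicate block by title number (0.0807), without resilient basal 1 and 3 (0.479) and without resilient stressed 2 and 3 (0.166); with single larvae left out it ran from 0 to 2. Larvae of the same title number were not clearly alike (correlations of deviations from group means -0.250 to 0.169 over 25 pairs, and -0.135 to 0.211 over 19 pairs by bracket number). These correlations cannot exclude a shared clutch or collection day. With the block by bracket number the count stayed at 1. For the archetypes after stress the count of 0 became 1 (crp4) in a fit of those groups alone, and for stress averaged over archetypes it became 1 (crp4) with DESeq2 and ran from 0 to 1 with single larvae left out. No member was called in the other 4 comparisons under any alternative. Some signs of values that were not called changed; the cause was not tested. Without resilient basal 1 and 3, crp1 was at -0.012 for stress in resilient larvae and 0.12 for the difference of responses, and the basal archetype values became -0.21, 0.64, 0.23, 0.42 and 1.199 for crp1, crp2, crp3, crp4 and saa. Without resilient stressed 2 and 3, crp2 was at -0.96 for stress in resilient larvae, 0.41 for archetypes after stress, 0.71 for the difference, -0.60 for averaged stress and 0.056 for averaged archetype. Without susceptible basal 1 and 2, stress in susceptible larvae was at -0.27, 0.75, 0.56 and 0.50 for crp1, crp2, crp4 and saa, the difference 0.39 for crp2, averaged stress -0.032 for crp1, and averaged archetype 0.16, -0.013, -0.21 and -0.40 for crp1, crp3, crp4 and saa. With the block by bracket number, stress in susceptible larvae was at 0.023 for crp4 and 0.42 for saa, averaged stress -0.050 for crp2, and averaged archetype 0.061 for crp1 and -0.36 for saa. The basal crp1 value was -0.012 with the block by title number and -0.0079 with limma voom. Leaving out single larvae gave sign changes within these ranges: for crp1, averaged archetype -0.13 to 0.041, difference -0.26 to 0.080, stress in susceptible larvae -0.045 to 0.29, basal archetype -0.17 to 0.17 and archetype after stress -0.20 to 0.039; for crp2, difference -1.25 to 0.011, averaged stress -0.26 to 0.37, stress in resilient larvae -0.27 to 0.99, stress in susceptible larvae -0.64 to 0.15 and basal archetype -0.70 to 0.33. For crp3 they were stress in susceptible larvae -0.17 to 0.41 and basal archetype -0.48 to 0.20, for crp4 basal archetype -0.60 to 0.16, and for saa averaged archetype -0.45 to 0.79, stress in susceptible larvae -1.03 to 0.59 and basal archetype -2.11 to 0.38. Over all genes the 1399 called in resilient larvae ran from 38 (without resilient basal 1 and 3) to 1918 (without resilient stressed 5), with 640 when the fit held no other group, and 427 and 863 with the blocks by bracket and title number; the 782 between stressed archetypes from 16 (without resilient stressed 2 and 3) to 1730, the 31 for the difference of responses from 5 to 407, the 334 for averaged stress from 0 to 979 and the 5 for averaged archetype from 0 to 180. The highest were 49 in susceptible larvae and 15 between basal archetypes (DESeq2), against 0 with edgeR.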

Other observations

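The table holds 2 rows for the long pentraxin gene ptx3a, named ptx3a and ptx3a_1, and they varied between larvae of the same group. ptx3a_1 stood at 0.174 CPM in resilient basal 4, 0.460 CPM in resilient stressed 4 and 0.0873 CPM in susceptible basal 2, from 2, 8 and 1 reads. In the other 15 larvae it lay between 5.52 and 17.7 CPM. Row ptx3a stood at 26.1, 33.8 and 32.7 CPM in those 3 larvae and between 10.03 and 31.7 CPM in the other 15. The files do not say which copy each row is, and row ptx3a_1 was picked after its values were seen, so no test was run. Dixon's rule for a larva far from the others of its group, applied to log2 CPM of the 5 members in 20 combinations of gene and group, picked out 0. The rule takes the gap to the nearest larva over the range of the group. It needs more than 0.829 with 4 larvae and 0.71 with 5. For saa, resilient basal 3 reached 0.493. More than 1 high larva in a group can hide each other, so this 0 does not show that no larva stood apart.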
